A study of Homo sapiens with 22 samples.

Results

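The 50 genes described here act in S phase, when DNA is copied, or in mitosis, when the copies are parted. They were taken by name, 14 as replication genes and 36 as mitosis genes, and all 50 were found among the 20668 gene symbols measured by RNA-seq in MDA-MB-231 cells, an established human triple-negative breast cancer line that carries no oestrogen or progesterone receptor. Cells were kept for 3 days in medium with charcoal-stripped serum, which is poor in steroids, and were then given vehicle, 100 nM dexamethasone (Dex, a synthetic glucocorticoid that activates the glucocorticoid receptor) for 2 h or 4 h, or 10 µM Compound A (CpdA, a non-steroidal ligand of the same receptor) for 2 h or 4 h. Each of the 5 groups held 2 samples, described as biological replicates. No time point was labelled for vehicle, so its 2 samples served together as the reference at 2 h and at 4 h. Each is shown on its own below. In comparisons with vehicle, and in those of 4 h with 2 h, time and ligand therefore cannot be told apart. All results come from this single line, without a second one to set beside it.

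Genes of DNA replication are switched on at the border of G1 and S phase, mostly by E2F factors, whereas most genes of mitosis peak later, in G2 and mitosis, through promoters that carry CHR and CCAAT elements and bind the MuvB complex with B-MYB or FOXM1. In a dividing culture, the RNA of both classes therefore depends on how many cells are in each phase as well as on how much RNA each cell makes. In bulk RNA such as this, fewer cells of one phase and less RNA per cell cannot be told apart.

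To show the promoter letters behind the 2 classes, RefSeq promoter windows (GRCh38.p14, 250 bases before to 50 bases after each start) were searched on both strands for TTTGAA (the CHR), for CCAAT, and for TTTGGCG or TTTCCCG (E2F-type letters). Windows were found for 43 of the 50 genes and were missing for MCM4, MCM5, AURKA, TTK, UBE2C, TPX2 and FOXM1. The CHR letters stood in 23 of 31 mitosis genes (74.2%) and in 1 of 12 replication genes (8.33%), beside 18.2% of all 27305 genes with a window. The E2F-type letters stood in 9 of 12 replication genes (75.0%) and 5 of 31 mitosis genes (16.1%), beside 7.3% of all genes. The CCAAT letters were frequent in both classes, in 9 of 12 and 25 of 31 genes (75.0% and 80.6%), beside 39.7% of all genes. A match describes the letters only.

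Shown here are the 150 bases before the start of 4 mitosis genes that differed most between Dex and CpdA at 4 h among those with a window (CDC20, PLK1, CDCA8, BUB1B), and of the 2 replication genes that were lower with Dex than with CpdA (CDC6, MCM6). Capitals mark the letters searched for, on either strand, so that ATTGG is CCAAT and TTCAAA would be the CHR on the other strand. The stretches are chr1:43358831-43358980 (plus strand), chr16:23678739-23678888 (plus), chr1:37692366-37692515 (plus), chr15:40160919-40161068 (plus), chr17:40287729-40287878 (plus) and chr2:135876444-135876593 (minus strand), all upstream of the transcript and outside any other RefSeq gene.
CDC20: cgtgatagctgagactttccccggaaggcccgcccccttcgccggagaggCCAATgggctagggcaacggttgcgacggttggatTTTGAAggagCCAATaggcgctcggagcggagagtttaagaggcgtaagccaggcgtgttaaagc
PLK1: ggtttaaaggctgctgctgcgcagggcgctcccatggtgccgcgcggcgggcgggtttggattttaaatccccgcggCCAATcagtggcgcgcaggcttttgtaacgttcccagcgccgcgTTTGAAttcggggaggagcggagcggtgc
CDCA8: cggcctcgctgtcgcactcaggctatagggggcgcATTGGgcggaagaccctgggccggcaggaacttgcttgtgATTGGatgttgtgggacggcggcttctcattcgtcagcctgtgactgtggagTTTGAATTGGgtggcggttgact
BUB1B: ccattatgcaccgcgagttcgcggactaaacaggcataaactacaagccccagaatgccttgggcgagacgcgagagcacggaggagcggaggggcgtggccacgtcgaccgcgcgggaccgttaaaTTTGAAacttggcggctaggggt
CDC6: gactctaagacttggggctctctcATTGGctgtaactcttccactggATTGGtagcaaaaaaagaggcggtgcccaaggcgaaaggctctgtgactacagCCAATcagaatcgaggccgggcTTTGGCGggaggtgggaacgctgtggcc
MCM6: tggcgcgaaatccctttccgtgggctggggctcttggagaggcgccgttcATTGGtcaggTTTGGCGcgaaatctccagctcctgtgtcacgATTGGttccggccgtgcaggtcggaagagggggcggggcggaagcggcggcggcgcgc
In the 4 mitosis genes TTTGAA began at positions -65, -29, -23 and -23 in the order printed, counted back from the start. In CDCA8 its last letter was the first of an ATTGG. In CDC6 and MCM6 the TTTGGCG began at positions -28 and -90, with CCAAT letters upstream of it in CDC6 and on both sides of it in MCM6.

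The values are RPKM as deposited by the authors, a read density corrected for the length of the transcript and for the mapped reads of the sample. All 50 genes were well above the minimum level used for testing (0.5 RPKM or more in 2 or more samples, which kept 12713 genes). In vehicle the replication genes had a median of 34.3 RPKM, from 7.52 for GINS1 to 122 for TYMS. The mitosis genes had a median of 32.7 RPKM, from 2.27 for HMMR to 96.4 for UBE2C. Differences were tested with limma on log2(RPKM + 0.1) in one fit over the 5 groups, and "called" below means a Benjamini-Hochberg adjusted p under 0.05 over all 12713 genes, whatever the size. The groups had 2 samples each, so each test leans on the spread pooled over groups and moderated across genes.

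Response genes mostly followed the labels. FKBP5, a glucocorticoid target, stood at 5.94 and 7.06 RPKM in vehicle, 75.0 and 73.4 after 2 h of Dex, and 203 and 212 after 4 h. HSPA6, an inducible heat shock protein gene, stood at 0.331 and 0.457 in vehicle, 11.6 and 13.8 after 2 h of CpdA, and 43.6 and 54.4 after 4 h. TSC22D3, also a glucocorticoid target, stood at 9.79 and 8.22 in vehicle, 304 and 302 after 2 h of Dex, and 12.4 and 12.1 after 2 h of CpdA. For PER1, another such target, these values were 2.07 and 1.28, 34.9 and 37.9, and 3.96 and 3.86. In TSC22D3 and PER1 all CpdA samples lay above both vehicle samples and far below the Dex samples. Of 5 markers of the line, VIM, CD44, CAV1 and AXL were high, the lowest value being 120 RPKM for CD44 at Dex 4 h, and SPARC was low, at 0.149 to 0.273. ESR1 and PGR were at most 0.0048, CDH1 at most 0.465, and ERBB2 stood at 15.9 to 21.6 and GATA3 at 3.75 to 6.6 RPKM. The 11 markers of immune, endothelial, fibroblast or red blood cells measured here were all under 3 RPKM, the highest being CD14 at 2.17 to 2.89. Relative depth, read from the RPKM step of 1 read, ran from 1.0 in vehicle replicate 1 to 1.212, with both vehicle samples the shallowest. Read totals are not in the files used here.

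The 2 vehicle samples agreed closely for the replication genes and less so for the mitosis genes. Vehicle replicate 2 was lower than vehicle replicate 1 for 29 of 36 mitosis genes, with a median log2 difference of -0.07, and for 9 of 14 replication genes, with a median of -0.02. The gap was largest for CDC25C, a phosphatase that activates CDK1, at 5.96 and 4.73 RPKM. A median of -0.003 over all genes tested shows no such shift in general. Because of it, medians against each vehicle sample are given beside the pooled ones.

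At 2 h few genes of either class were called. At 4 h the median of the 14 replication genes lay below vehicle by about the same amount under both ligands. The median of the 36 mitosis genes lay further below vehicle with CpdA than with Dex. In the 48 other replication genes counted below, the 4 h medians were unequal, -0.23 with Dex and -0.10 with CpdA. In the 78 other mitosis genes they were -0.11 and -0.26. Relative to the vehicle mean, the median log2 level of the 14 replication genes was -0.20 and -0.23 in the 2 Dex 4 h samples. Under CpdA for the same time it was -0.20 and -0.19. The median of the mitosis genes was -0.07 and -0.08 after 4 h of Dex, and -0.35 and -0.31 after 4 h of CpdA. The median over all genes in these 4 samples lay between -0.06 and -0.03.

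**Figure D1:**
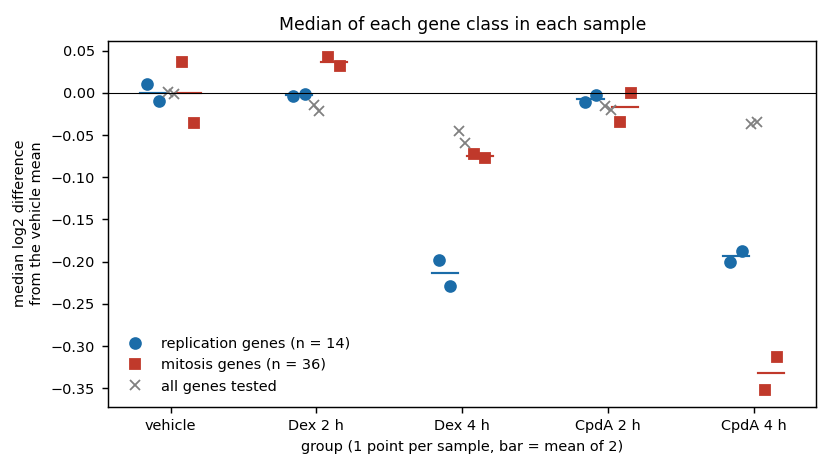
Median log2 difference from the vehicle mean (vertical axis) of the 14 replication genes (blue circles), the 36 mitosis genes (red squares) and all genes tested (grey crosses) in each of the 10 samples, by group. Short bars are the mean of the 2 samples. Replication medians are near -0.2 under both ligands at 4 h, while mitosis medians are near -0.08 with Dex and at -0.31 and -0.35 with CpdA.

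Subtracting the replication median from the mitosis median within a sample gave 0.125 and 0.152 in the Dex 4 h samples, and -0.152 and -0.126 in those of CpdA 4 h, so the order of the classes was opposite under the 2 ligands in all 4 samples. Taken against vehicle replicate 1 alone the values were 0.081 and 0.132 with Dex and -0.198 and -0.196 with CpdA. Against vehicle replicate 2 alone they were 0.177 and 0.183 with Dex, and -0.107 in both CpdA samples. The order held against either vehicle sample. These are descriptions of lists chosen with results of these data known, and carry no p.

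**Figure D2:**
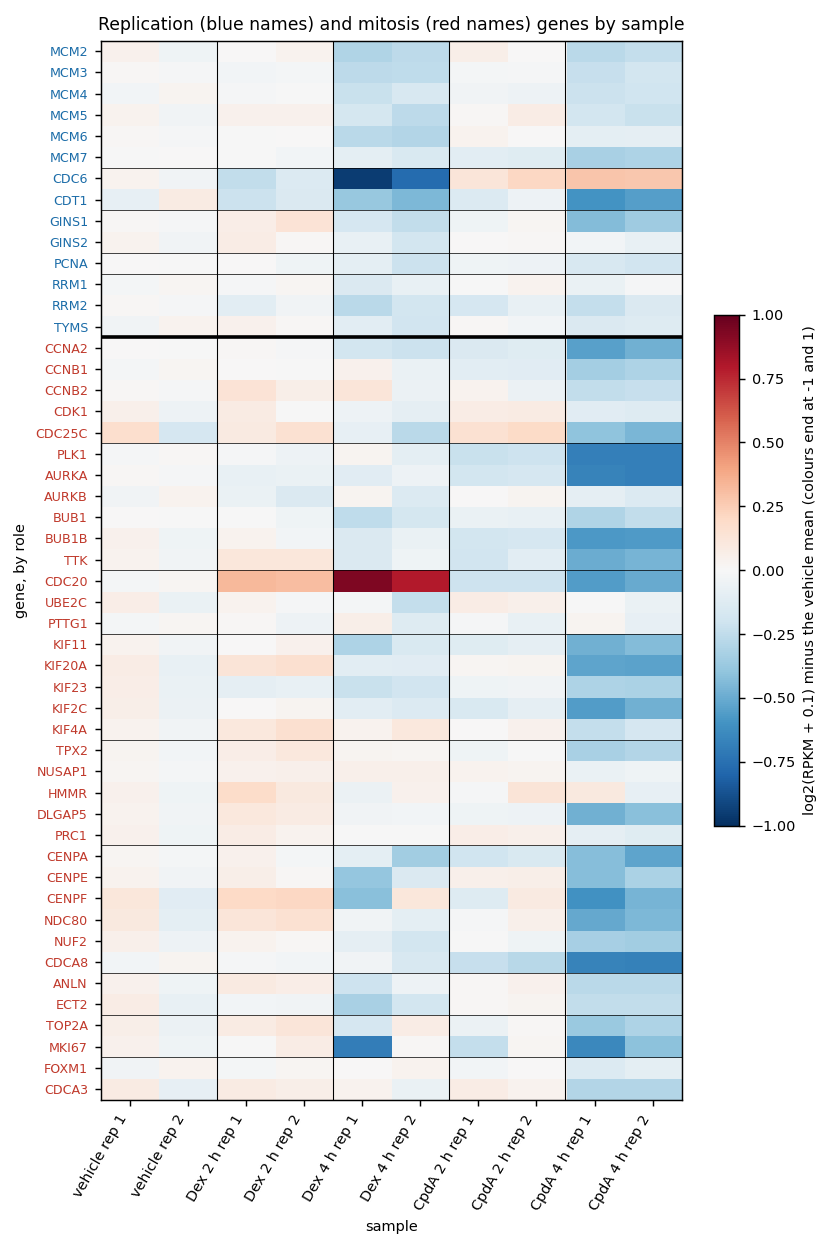
Heat map of log2(RPKM + 0.1) minus the vehicle mean for each of the 50 genes (rows, grouped by role, replication genes above the thick line) in each of the 10 samples (columns, both vehicle samples shown). Blue is below and red above the vehicle mean. The CpdA 4 h columns are blue for most genes, CDC6 is blue with Dex and light red with CpdA, and CDC20 is red with Dex and blue with CpdA.

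The first question was how the Dex samples differed from vehicle in the 2 classes. After 2 h of Dex, 1 of the 50 genes was called higher, CDC20, and none lower, while 4.49% of all genes tested were called higher and 5.82% lower. At an unadjusted p under 0.05 limma gave 2 replication genes lower and none higher, and 5 mitosis genes higher and none lower. Shares of all genes at this looser threshold are not given here. The unadjusted counts, here and below, therefore cannot be set against the printed shares, which are for adjusted p or for overlap. The median log2 difference was -0.003 for replication genes, 0.04 for mitosis genes and -0.02 for all genes tested. The count was 4 without vehicle replicate 1 and 2 without either Dex 4 h sample.

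CDC20, which activates the anaphase-promoting complex and so sets off the parting of chromatids, stood at 68.9 and 70.5 RPKM in vehicle, 87.1 and 86.4 after 2 h of Dex, and 133 and 121 after 4 h. Both Dex samples lay above both vehicle samples at each time. The log2 difference from vehicle was 0.32 (SE 0.05, limma adjusted p = 0.00263) at 2 h and 0.86 (SE 0.05, adjusted p = 1.76e-06) at 4 h, a 1.82-fold rise. It was the 1 mitosis gene called higher with Dex against vehicle at either time.

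After 4 h of Dex, 12 of 14 replication genes were called lower and none higher, against 18.2% of all genes called lower and 9.26% higher. At an unadjusted p under 0.05 in limma all 14 were lower and none higher, with no share of all genes at that threshold to set beside this. Of the mitosis genes, 6 of 36 were called lower, a share (16.7%) near the background, and CDC20 alone was called higher. The median log2 difference was -0.21 for replication genes, -0.09 for mitosis genes and -0.05 for all genes tested. In all 14 replication genes both Dex samples lay below both vehicle samples, which 36.6% of all genes tested also showed. For the mitosis genes this was so in 15 of 36.

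The number of replication calls changed with the vehicle samples used and with the scale. Shares of all genes called under these other settings are not given here. A loss of calls particular to these genes therefore cannot be told from a general one. Without vehicle replicate 1, 7 replication and 3 mitosis genes were called lower and the total fell from 19 to 11, and without Dex 4 h replicate 2, 11 mitosis genes were called lower. With samples scaled to a common median 5 replication and 3 mitosis genes were called lower, and a fit of only the 4 samples called 5 replication genes and no mitosis gene lower, with CDC20 higher in each. Median scaling also moved the medians, to -0.14 for replication and -0.019 for mitosis genes, and with 1 sample left out the mitosis median ran from -0.122 to -0.052.

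CDC6, which loads the MCM helicase onto origins together with CDT1, fell most. Its level was 32.7 and 31.3 RPKM in vehicle, 27.0 and 29.1 after 2 h of Dex, and 16.5 and 18.7 after 4 h. The samples of the 3 groups did not overlap. At 4 h the log2 difference was -0.86 (SE 0.07, adjusted p = 1.31e-05), or 0.551 of the vehicle level, whereas the difference of -0.19 at 2 h was not called. CDT1, its partner in licensing, stood at 9.21 and 10.4 RPKM in vehicle and 7.48 and 7.12 at Dex 4 h, a log2 difference of -0.42 (SE 0.07, adjusted p = 0.00157).

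The 6 subunits of the MCM2 to MCM7 helicase, the ring that unwinds DNA at the fork, were all called lower at Dex 4 h, with log2 differences from -0.28 to -0.13. MCM2 stood at 27.5 and 25.9 RPKM in vehicle and at 21.6 and 22.2 at Dex 4 h (log2 difference -0.28, SE 0.05, adjusted p = 0.00144). MCM6 stood at 31.2 and 30.7 RPKM in vehicle and at 25.7 and 25.3 at Dex 4 h (-0.28, SE 0.04, adjusted p = 0.000375). The remaining genes moved less. Called lower were GINS1 (-0.20), a part of the GINS complex that joins the active helicase, PCNA (-0.16), the sliding clamp of the polymerases, RRM2 (-0.22), a subunit of ribonucleotide reductase, and TYMS (-0.15), thymidylate synthase. GINS2 (-0.13) and RRM1 (-0.11), the other ribonucleotide reductase subunit, did not pass.

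Among mitosis genes, those called lower at Dex 4 h were CENPE (a kinetochore motor), ECT2 (an activator of RhoA in cytokinesis), KIF11 (the spindle motor Eg5), BUB1 (a checkpoint kinase), KIF23 (a midzone motor) and CCNA2 (cyclin A2, which acts in S phase as well as in G2), by -0.26 to -0.20 on the log2 scale. ECT2 stood at 32.2 and 29.0 RPKM in vehicle and 24.4 and 26.9 at Dex 4 h (-0.25, SE 0.06, adjusted p = 0.011). KIF11 stood at 22.3 and 21.3 RPKM in vehicle and 17.7 and 19.6 at Dex 4 h (-0.23, SE 0.06, adjusted p = 0.0145). In both genes Dex 4 h replicate 1 lay below replicate 2. CENPE, with an adjusted p of 0.0349 in limma, is among the long transcripts described below, whose 2 Dex 4 h samples differed, and its call was lost without Dex 4 h replicate 1. PLK1, AURKA and CCNB1 were not called. PLK1 differed from vehicle by -0.03 (95% CI -0.14 to 0.07), AURKA by -0.08 (-0.17 to 0.001) and the cyclin gene CCNB1 by -0.01 (-0.11 to 0.08).

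Most of the replication change came between 2 h and 4 h of Dex, a comparison that does not use the vehicle samples. Time and ligand cannot be told apart in that comparison, and the replication median also fell from 2 h to 4 h of CpdA (-0.14). Of the replication genes 9 of 14 were called lower at 4 h than at 2 h and none higher (9.02% and 4.55% of all genes), with all 14 lower at an unadjusted p under 0.05 in limma, and all 14 had both 4 h samples below both 2 h samples (32.8% of all genes). CDC6 fell by 0.67 (SE 0.07, adjusted p = 0.000382), MCM2 by 0.30 (SE 0.05, adjusted p = 0.00291) and MCM6 by 0.28 (SE 0.04, adjusted p = 0.00138) on the log2 scale. Of the mitosis genes 8 of 36 were called lower, 17 were lower at an unadjusted p under 0.05, and 25 had both 4 h samples below both 2 h samples. CDC20 was called higher, by 0.55 (SE 0.05, adjusted p = 0.00025). The medians were -0.21, -0.13 and -0.02 for replication, mitosis and all genes. Leaving out Dex 2 h replicate 1 or 2 cut the total of 18 calls to 6 or 5, with no mitosis gene called lower, and leaving out any 1 CpdA sample cut the mitosis genes called lower from 8 to 4, or without Dex 4 h replicate 1 to 5. The total of 18 was 9 after median scaling, with 2 mitosis genes called lower. With only the 4 samples fitted it was 4, with 0 mitosis genes called lower.

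The second question was how the CpdA samples differed from vehicle. At 2 h 4 mitosis genes were called lower and none higher, and no replication gene was called in either direction, against 4.29% of all genes called lower and 1.89% higher. At an unadjusted p under 0.05 limma gave 9 mitosis genes lower and none higher, and 2 replication genes lower and 1 higher. The medians were -0.01 for replication genes and -0.02 for both mitosis genes and all genes. The 4 called were CDCA8, PLK1, CDC20 and AURKA. These calls were weak: the total was 0 without either CpdA 2 h sample or without vehicle replicate 2, 1 without either CpdA 4 h sample or either Dex 2 h sample, 2 without vehicle replicate 1, 7 without either Dex 4 h sample, and 0 after median scaling.

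PLK1, a kinase of mitotic entry and spindle assembly, stood at 39.0 and 39.7 RPKM in vehicle, 33.7 and 34.1 after 2 h of CpdA, and 24.4 and 24.5 after 4 h. AURKA, the kinase of the spindle poles, stood at 38.5 and 37.8 RPKM in vehicle, 33.5 and 34.0 after 2 h of CpdA, and 24.0 and 23.8 after 4 h. CDCA8 (borealin), of the chromosomal passenger complex, stood at 38.0 and 39.6 RPKM in vehicle, 33.0 and 32.1 after 2 h of CpdA, and 24.4 and 24.3 after 4 h. In each of the 3 genes the samples of the 3 groups did not overlap, and the replicates lay within 2 RPKM of each other. At 2 h the log2 differences were -0.21 for PLK1 (SE 0.05, adjusted p = 0.0298), -0.17 for AURKA (SE 0.04, adjusted p = 0.0287), -0.25 for CDCA8 (SE 0.05, adjusted p = 0.0182) and -0.21 for CDC20 (SE 0.05, adjusted p = 0.0395), by limma.

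After 4 h of CpdA, 27 of 36 mitosis genes were called lower and none higher, where 13.8% of all genes tested were called lower and 6.76% higher. At an unadjusted p under 0.05 limma gave 31 lower and none higher. Of the replication genes 9 of 14 were called lower, and CDC6 was called higher. The medians were -0.34 for mitosis genes, -0.20 for replication genes and -0.04 for all genes tested. In 33 of 36 mitosis genes both CpdA samples lay below both vehicle samples, as in 39.5% of all genes. The same held for 11 of 14 replication genes, and 11 were lower at an unadjusted p under 0.05.

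PLK1 (log2 difference -0.68, SE 0.05, adjusted p = 3.72e-05), AURKA (-0.67, SE 0.04, adjusted p = 1.28e-05) and CDCA8 (-0.67, SE 0.05, adjusted p = 5.64e-05) fell most, to 0.622, 0.627 and 0.628 of vehicle. Among mitosis genes BUB1B came next, the gene of the checkpoint protein BubR1, at 16.0 and 15.1 RPKM in vehicle and 10.4 in both CpdA 4 h samples (-0.57, SE 0.05, adjusted p = 0.00011). CDC20 stood at 60.4 and 60.3 RPKM after 2 h of CpdA, and 47.4 and 49.2 after 4 h. These samples lay below both vehicle samples, whereas the Dex samples lay above both. The log2 difference of CDC20 at CpdA 4 h was -0.53.

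By role, all 5 motors and all 6 kinetochore and centromere genes were called lower at CpdA 4 h, with medians of -0.46 and -0.48. They include KIF20A (-0.53), a motor of cytokinesis, KIF2C (-0.52), which removes tubulin from microtubule ends, and NDC80 (-0.48) and NUF2 (-0.34), which tie kinetochores to microtubules. Of the 6 kinases 5 were called lower, TTK among them (-0.48), and AURKB was not (-0.11). Of the 5 genes of cyclin-CDK entry 4 were called lower: CCNA2 (-0.51), the phosphatase gene CDC25C (-0.43), CCNB1 (-0.32) and CCNB2 (-0.24). Both cytokinesis genes, ANLN (-0.27) and ECT2 (-0.24), were called lower too.

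Mitosis genes were not lowered alike. Spindle assembly genes were split, with DLGAP5 (-0.45) and TPX2 (-0.31), the activator of AURKA, called lower, and NUSAP1 (-0.05), PRC1 (-0.11) and HMMR (0.01) not called. Of the anaphase genes, UBE2C, a ubiquitin-conjugating enzyme of the anaphase-promoting complex, stood at 101 and 92.2 RPKM in vehicle and 96.1 and 92.2 at CpdA 4 h. PTTG1, the securin that holds separase back, stood at 43.4 and 44.7 RPKM in vehicle and 44.9 and 41.7 at CpdA 4 h. For both the groups overlapped, and the 95% CIs of the log2 differences were -0.19 to 0.13 and -0.17 to 0.12. CDK1 (-0.12), FOXM1 (-0.12), a transcription factor of mitotic genes, and MKI67 (-0.53, adjusted p = 0.0864 by limma) were also not called, MKI67 with the widest error, SE 0.20. The CHR letters stood in 18 of 24 mitosis genes called lower (75.0%) and 5 of 7 not called (71.4%), among those with a window.

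Of the replication genes, CDT1 fell most with CpdA, from 9.21 and 10.4 RPKM in vehicle to 6.43 and 6.62 at 4 h (-0.58, SE 0.07, adjusted p = 0.000503). GINS1 stood at 7.59 and 7.46 RPKM in vehicle and 5.55 and 5.85 at CpdA 4 h (-0.39, SE 0.06, adjusted p = 0.00145). MCM7 went from 85.1 and 85.4 RPKM in vehicle to 68.2 and 68.9 (-0.31, SE 0.04, adjusted p = 0.000461). In these genes the groups did not overlap. The other MCM genes called lower (MCM2, MCM3, MCM4, MCM5) changed by -0.25 to -0.20, PCNA by -0.18 and RRM2 by -0.20. MCM6 (-0.09), GINS2 (-0.05), RRM1 (-0.04) and TYMS (-0.14) did not pass. CDC6 stood apart, at 34.8 and 36.9 RPKM after 2 h of CpdA, and 38.8 and 38.7 after 4 h, against 32.7 and 31.3 in vehicle (0.27, SE 0.07, adjusted p = 0.0173).

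The total of 37 calls fell to 22 without CpdA 4 h replicate 1, with 18 mitosis and 4 replication genes then called lower. The call of CDC6 was lost without either CpdA 4 h sample and without vehicle replicate 2. CpdA at 4 h against 2 h, which leaves out vehicle, called 28 of 36 mitosis genes and 7 of 14 replication genes lower and none of either higher (7.2% and 5.21% of all genes called lower and higher), with none higher and 31 and 10 lower at an unadjusted p under 0.05 in limma. The medians were -0.32, -0.14 and -0.01 for mitosis, replication and all genes. CDC25C fell by 0.60 (SE 0.10, adjusted p = 0.00858), KIF20A by 0.55 (SE 0.05, adjusted p = 0.000686) and AURKA by 0.50 (SE 0.04, adjusted p = 0.000268) on the log2 scale. The total of 35 was 13 without either CpdA 2 h sample, 11 without CpdA 4 h replicate 1 and 15 without CpdA 4 h replicate 2.

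**Figure D3:**
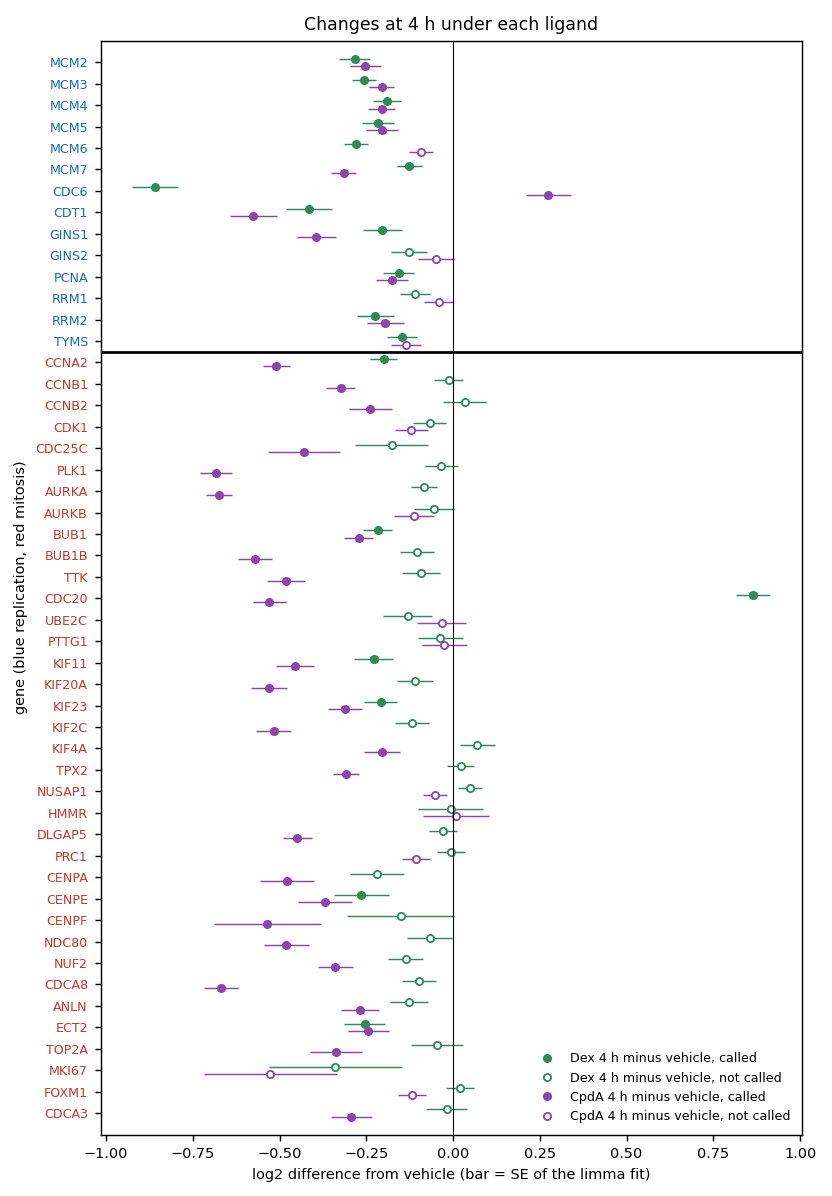
Log2 difference from vehicle at 4 h (horizontal axis) of each of the 50 genes under Dex (green) and CpdA (purple), with the SE of the limma fit as bars, filled where called. In the replication genes the 2 colours lie furthest apart for CDC6, with smaller gaps for MCM6, MCM7, GINS1 and CDT1, and in most mitosis genes purple lies to the left of green, with CDC20 at 0.86 under Dex and -0.53 under CpdA.

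The comparisons with vehicle share the same 2 vehicle samples, so the ligands were also compared with each other. At 4 h 21 of 36 mitosis genes were called higher with Dex than with CpdA and none lower, beside 15.4% of all genes called higher and 18.0% lower. At an unadjusted p under 0.05 limma gave 26 higher and none lower. The median difference was 0.27 for mitosis genes and -0.02 for both replication genes and all genes tested. In 28 of 36 mitosis genes both Dex 4 h samples lay above both CpdA 4 h samples, as in 28.3% of all genes. The number of mitosis genes called higher ran from 15 to 24 when 1 sample was left out, and was 21 after median scaling, with 1 called lower without Dex 4 h replicate 1.

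CDC20 differed most, at 133 and 121 RPKM with Dex and 47.4 and 49.2 with CpdA, a log2 difference of 1.39 (SE 0.05, adjusted p = 8.28e-08) or 2.63-fold. PLK1 stood at 40.2 and 36.8 RPKM at Dex 4 h (log2 difference from CpdA 0.65, SE 0.05, adjusted p = 7.61e-06). AURKA stood at 35.2 and 36.7 RPKM at Dex 4 h (0.59, SE 0.04, adjusted p = 3.47e-06). CDCA8 stood at 37.9 and 34.7 RPKM at Dex 4 h (0.57, SE 0.05, adjusted p = 2.38e-05). For the last 3 genes the Dex 4 h samples lay within 5 RPKM of both vehicle samples, and the CpdA samples stood apart from both groups.

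Of the 14 replication genes, 10 were not called between Dex and CpdA at 4 h, 2 were higher with Dex and 2 lower (14.3% each). These shares lay below those of all genes, 15.4% called higher and 18.0% lower. For MCM2, MCM3, MCM4 and MCM5 the 95% CIs of the difference, Dex minus CpdA, were -0.13 to 0.07, -0.13 to 0.03, -0.07 to 0.11 and -0.12 to 0.09. For PCNA the interval was -0.08 to 0.12. CDC6 was lower with Dex by a log2 difference of -1.13 (SE 0.07, adjusted p = 1.73e-06), at 0.456 of the CpdA level. MCM6 was lower as well (-0.19, SE 0.04, adjusted p = 0.00327), while MCM7 (0.19, SE 0.04, adjusted p = 0.00329) and GINS1 (0.19, SE 0.06, adjusted p = 0.0293) were higher with Dex. Of the 6 MCM subunits, 1 was thus called in each direction, and with shares near the background this is a description only.

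**Figure D4:**
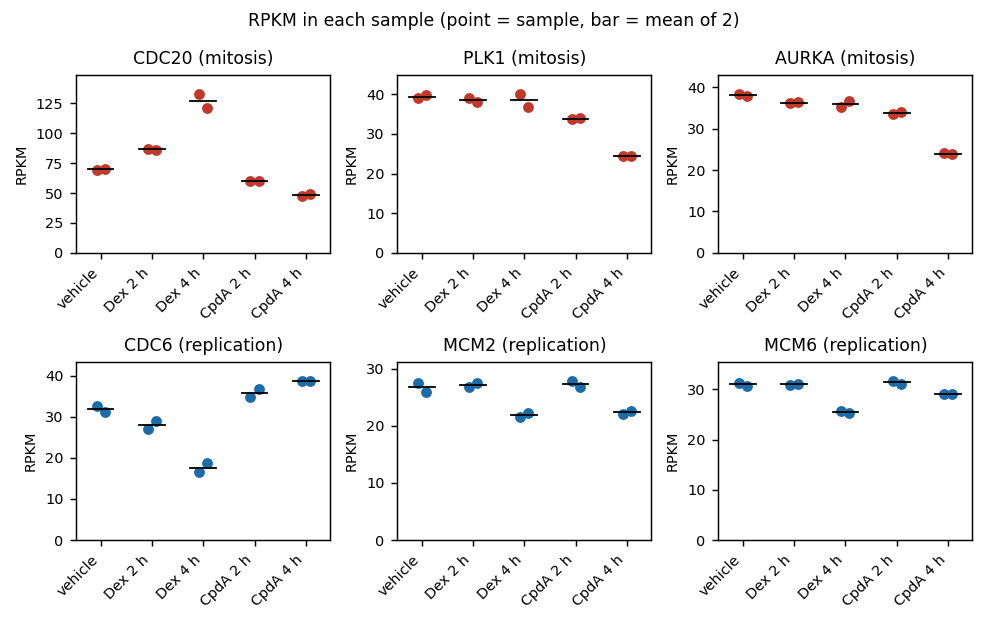
RPKM of 3 mitosis genes (red) and 3 replication genes (blue) in each sample (points) with the mean of each group (bars), vertical axes from 0. CDC20 climbs with Dex and declines with CpdA, PLK1 and AURKA decline with CpdA, CDC6 declines with Dex, MCM2 is near 22 RPKM with both ligands at 4 h, and MCM6 is lowest at Dex 4 h.

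At 2 h 6 mitosis genes were called higher with Dex than with CpdA and 1 replication gene lower, a mitosis share (6 of 36) set beside 7.53% of all genes called higher and 6.18% lower. No mitosis gene was called lower and no replication gene higher. At an unadjusted p under 0.05 limma gave 14 mitosis genes higher and none lower, and 1 replication gene higher and 1 lower. CDC20 (0.52, SE 0.05, adjusted p = 8.48e-05), TTK (0.26, SE 0.05, adjusted p = 0.0113), CDCA8 (0.24, SE 0.05, adjusted p = 0.0115) and PLK1 (0.18, SE 0.05, adjusted p = 0.0308) led, with BUB1B and CCNA2 behind, and CDC6 was lower (-0.35, SE 0.07, adjusted p = 0.00602). The medians were 0.11 for mitosis genes, 0.02 for replication genes and -0.01 for all genes. The total of 7 was 1 without Dex 2 h replicate 1, 2 without Dex 2 h replicate 2 or either CpdA 2 h sample, 4 without either CpdA 4 h sample, 4 after median scaling or without the trend, and 13 with only the 4 samples fitted.

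A direct test of whether the change from 2 h to 4 h differed between the ligands called 8 mitosis genes, all with the larger value under Dex, and CDC6 among the replication genes, with the lower value under Dex. Over all genes 3.04% were called higher and 3.56% lower. At an unadjusted p under 0.05 limma gave 14 mitosis genes higher and none lower, and 1 replication gene higher and 2 lower. For CDC20 the difference of the changes was 0.87 (SE 0.07, adjusted p = 0.000447), for AURKA 0.49 (SE 0.05, adjusted p = 0.00146), for PLK1 0.47 (SE 0.07, adjusted p = 0.00444) and for CDCA8 0.34 (SE 0.07, adjusted p = 0.0225), by limma. For CDC6 it was -0.78 (SE 0.09, adjusted p = 0.00198). The total of 9 was 4 when any 1 of the CpdA or Dex 2 h samples was left out, 15 without Dex 4 h replicate 2, and 4 without the trend.

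Other genes of the 2 pathways, from lists also chosen with results known, were counted in the same way. Of 48 other replication genes, 29 were called lower at Dex 4 h against vehicle, led by DTL (-1.02), MCM10 (-0.83) and UHRF1 (-0.76), and 17 were called lower and 1 higher at CpdA 4 h, led by UHRF1 (-0.67), ORC1 (-0.53) and PRIM1 (-0.51). Over all genes tested, 18.2% were called lower at Dex 4 h and 13.8% at CpdA 4 h. DTL directs the destruction of CDT1, MCM10 takes part in starting forks, UHRF1 brings DNA methylation to new strands, ORC1 marks origins and PRIM1 is the catalytic subunit of primase. Their median log2 difference was -0.23 with Dex and -0.10 with CpdA. Between Dex and CpdA at 4 h 14 were lower and 1 higher, where 18.0% of all genes were called lower and 15.4% higher.

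Of 79 other mitosis genes 78 were found and tested (MLF1IP was not found under that symbol). At Dex 4 h 22 were called lower and 1 higher (median -0.11), led by HJURP (-0.48), which deposits CENPA, SGOL1 (-0.47), which protects cohesin at centromeres, and MASTL (-0.45), a kinase that restrains a phosphatase in mitosis. At CpdA 4 h 42 were called lower and 1 higher (median -0.26), led by PSRC1 (-0.83), a spindle protein, KIFC1 (-0.69), a minus-end motor, and ASPM (-0.67), a spindle pole protein. Between Dex and CpdA at 4 h 29 were higher with Dex and 5 lower (median 0.10). The shares of all genes to set beside these counts are again 18.2% lower at Dex 4 h, 13.8% lower at CpdA 4 h, and 15.4% higher and 18.0% lower between the ligands. Of 18 cell cycle control genes upstream of both classes 12 were called lower under Dex at 4 h (18.2% of all genes), and 5 under CpdA (13.8% of all genes).

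E2F7, a repressor of E2F targets, stood at 37.7 RPKM in both vehicle samples, 13.2 and 15.0 after 2 h of Dex, 7.22 and 8.62 after 4 h, and under CpdA 37.9 and 40.2 after 2 h, then 38.3 and 39.1 after 4 h. Its log2 difference at Dex 4 h was -2.24 (SE 0.08, adjusted p = 1.58e-07). The 4 Dex samples lay below the 6 others, which ranged from 37.7 to 40.2 RPKM. E2F2, an activator of S phase genes with low RNA here, stood at 1.57 and 1.35 RPKM in vehicle, 0.728 and 0.682 after 4 h of Dex, and 0.659 and 0.721 after 4 h of CpdA (log2 differences -0.95 and -0.98).

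The 2 Dex 4 h samples differed from each other in long transcripts. Replicate 1 minus replicate 2 had a median log2 value of 0.13 over tested genes with a longest transcript under 2000 bases and -0.29 over those of 8000 bases or more, where the other groups lay between -0.07 and 0.04. Over tested genes of 5000 to 8000 bases the Dex 4 h median was -0.13. KIF11 (5016 bases, -0.15) and TOP2A (5695 bases, -0.24) were among them, and ECT2 (4406 bases) differed by -0.14. The 3 genes of 8000 bases or more were MKI67, CENPF and CENPE. MKI67, the Ki-67 antigen of dividing cells, stood at 24.5 and 23.0 RPKM in vehicle, 14.6 and 24.0 after 4 h of Dex, and 15.2 and 17.8 after 4 h of CpdA. CENPF stood at 22.0 and 18.8 RPKM in vehicle, 15.2 and 22.1 after 4 h of Dex, and 13.3 and 14.7 after 4 h of CpdA. CENPE stood at 8.38 and 7.98 RPKM in vehicle, 6.24 and 7.39 after 4 h of Dex, and 6.06 and 6.56 after 4 h of CpdA. In MKI67 and CENPF Dex 4 h replicate 1 lay below both vehicle samples, while replicate 2 lay within or above their range. Their lower Dex mean therefore rests on replicate 1.

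**Figure D5:**
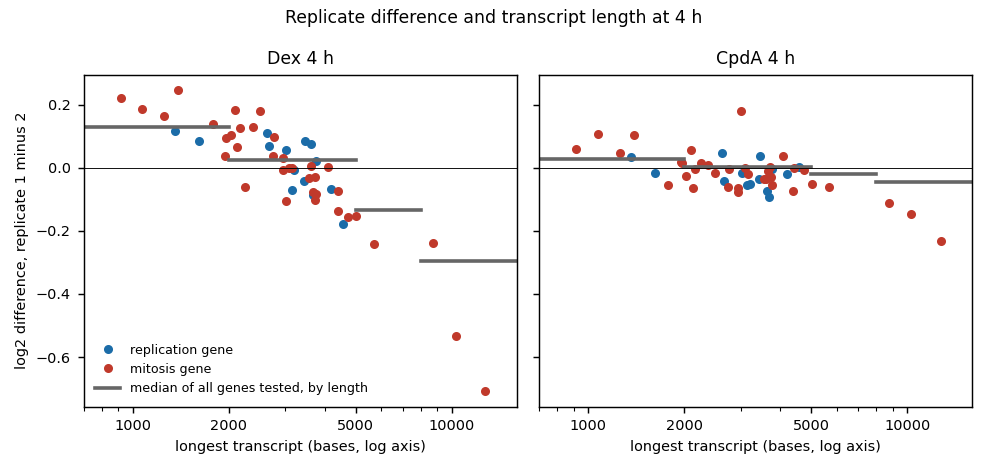
Log2 difference of replicate 1 minus replicate 2 (vertical axis) against the longest transcript of each gene in bases (log axis) at Dex 4 h and CpdA 4 h, with replication genes blue, mitosis genes red and grey bars at the median of all genes tested in 4 length classes. At Dex 4 h the points run downward to -0.71 for MKI67, and at CpdA 4 h to -0.23.

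Against vehicle, genes of 8000 bases or more had a median of -0.14 under Dex at 4 h, and of -0.07 under CpdA, and those under 2000 bases 0.005 in both. Between Dex and CpdA at 4 h the medians were -0.06 for the long and -0.004 for the short genes. Genes of 5000 to 8000 bases had 4 h medians of -0.10 under Dex and -0.07 under CpdA against vehicle, and -0.04 between the ligands. Only 3 of the 50 genes reach 8000 bases, and none was among the 21 mitosis genes called higher with Dex than with CpdA at 4 h. KIF11 (5016 bases) and TOP2A (5695 bases), of the next length class, were among those 21. The role of transcript length in the differences described here was not tested. Of the 50 genes, 11 overlap another protein-coding gene in RefSeq, PLK1 (with ERN2), CCNA2 (EXOSC9), KIF20A (CDC23), BUB1B (BUB1B-PAK6) and MCM7 (AP4M1) among those described, and whether the counting used strand is not given in the sources used here.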

How the data were processed

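RNA-seq was analysed for 10 samples in 5 groups (vehicle, Dex 2 h, Dex 4 h, CpdA 2 h, CpdA 4 h, n = 2), grouped by their labels. The authors sequenced 50-base single-end reads, aligned them with TopHat (2.0.13 in the submitters' processing notes) and estimated abundance in Partek Genomics Suite 6.6. What they deposited is RPKM for each gene symbol. The build hg19 is listed in the notes without a role. No counts or read totals are given, so no counting interval can be set, and depth is known only in relative terms. RPKM is relative to the mapped reads of each sample, so a shift shared by most genes would not show.

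Here log2(RPKM + 0.1) was modelled by limma 3.58.1 (R 4.3.3) for genes at 0.5 RPKM or more in 2 or more samples (group means, eBayes with trend, 5 residual degrees of freedom), with Benjamini-Hochberg adjustment over 12713 genes. Folds are on this scale and understate changes of low genes. Intervals are 95% limits of the fit. The script was tested on simulated data. The genes, pathway lists and promoter letters were chosen with earlier results of these data known. Full statistics are given for at most 4 genes per class and comparison, taken from those called with the largest differences. Not every such gene is shown. At most 3 genes are named per other list and comparison. The response checks were FKBP5, TSC22D3, PER1 and HSPA6. The levels of E2F2 and E2F7 by sample were added after their values were seen. Alternatives were pseudocounts of 1 and 0.01, no filter, RPKM of at least 1, quantile normalization, median scaling, no trend, only the 4 samples compared, the replicate number as a block, and each sample left out. Transcript lengths (GENCODE v44 on GRCh37) matched 10980 of the genes tested and all 50 members. Promoter windows are from RefSeq. Binding data of the series were not used here. Tables were made with Python 3.11.15.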

Additional observations from a re-analysis of the deposited data

Results flagged for a closer look

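The change from 2 h to 4 h differed between Dex and CpdA for 9 of the 50 genes in a limma interaction test, adjusted over all genes tested (n = 2 samples per group). The difference of the log2 changes, Dex minus CpdA, was 0.87 for CDC20, 0.49 for AURKA, 0.47 for PLK1, 0.34 for CDCA8, 0.30 for KIF20A, 0.29 for BUB1B, 0.28 for DLGAP5 and 0.22 for TPX2, and -0.78 for CDC6. In CDC20 the change from 2 h to 4 h had opposite signs, 0.55 under Dex and -0.32 under CpdA. In CDC6 the change was -0.67 under Dex and 0.11, not called, under CpdA. In the remaining 7 genes the change was called under CpdA, from -0.28 for TPX2 to -0.55 for KIF20A, and under Dex it ran from -0.26 for KIF20A, which was called, to -0.002 for PLK1, and the other 6 were not called. Of all genes tested, 3.04% were called higher and 3.56% lower. No explanation was tested. No outlier test was run on groups of 2 samples, although the 2 Dex 4 h samples differed in long transcripts, as described above.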

How the results depend on the processing

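Precision was limited by 2 samples per group and by an unknown read depth, and a permutation test of 2 samples against 2 could not reach the threshold. Of 146 gene and comparison pairs called, all kept their direction under every alternative. All kept the call with a pseudocount of 0.01, the stricter filter and the replicate block, 145 with a pseudocount of 1, 129 with quantile normalization, 127 with no filter, 118 without the trend, 111 with only the 4 samples and 108 with median scaling. Leaving out 1 sample kept 85 (without CpdA 4 h replicate 1) to 140 (without Dex 4 h replicate 2). Why calls were lost was not tested.

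Median scaling moved the count of the 50 genes called from 19 to 9 at Dex 4 h, from 4 to 0 at CpdA 2 h, from 18 to 9 for Dex 4 h against 2 h and from 7 to 4 for Dex against CpdA at 2 h. It moved the replication medians to 0.012 at Dex 2 h, -0.14 at Dex 4 h, 0.024 at CpdA 2 h, -0.135 at CpdA 4 h, -0.153 for Dex 4 h against 2 h, -0.112 for CpdA 4 h against 2 h and -0.003 for Dex against CpdA at 2 h, and the mitosis medians to -0.019 at Dex 4 h, 0.013 from -0.021 at CpdA 2 h, -0.273 at CpdA 4 h, -0.079 for Dex 4 h against 2 h, -0.286 for CpdA 4 h against 2 h and 0.09 for Dex against CpdA at 2 h. Only the 4 samples gave 6 calls at Dex 4 h, 4 for Dex 4 h against 2 h and 13 for Dex against CpdA at 2 h. Without the trend there were 1 at CpdA 2 h, 4 for Dex against CpdA at 2 h and 4 for the difference of the time changes. No filter gave 2 at CpdA 2 h. For Dex 4 h against 2 h the mitosis median was -0.124 with a pseudocount of 1 and -0.127 with quantile normalization, and for Dex against CpdA at 2 h the replication median was 0.011 with quantile normalization.

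With 1 sample left out, the calls ranged from 1 to 4 at Dex 2 h, 11 to 21 at Dex 4 h, 0 to 7 at CpdA 2 h, 22 to 40 at CpdA 4 h, 5 to 22 for Dex 4 h against 2 h, 11 to 40 for CpdA 4 h against 2 h, 1 to 10 for Dex against CpdA at 2 h, 18 to 28 at 4 h, and 4 to 15 for the difference of the time changes, whose alternatives were chosen after seeing the data. The replication medians ranged from -0.018 to -0.001, -0.229 to -0.198, -0.015 to -0.003, -0.2 to -0.178, -0.227 to -0.201, -0.156 to -0.137, 0.006 to 0.02 and -0.036 to -0.008 over the first 8 comparisons in that order. The mitosis medians ranged from -0.001 to 0.075, -0.122 to -0.052, -0.071 to 0, -0.392 to -0.287, -0.138 to -0.117, -0.328 to -0.283, 0.086 to 0.12 and 0.243 to 0.279.

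The groups share replicate numbers, but samples with the same number deviated from their group means with correlations of -0.057 to 0.198 over 10 pairs of groups, above 0.1 in 3, so the numbers were not taken to pair the samples. With the replicate block the calls were 1, 22, 4, 40, 23, 35, 7 and 27 for the same 8 comparisons in that order and 9 for the difference of the time changes.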
